A study of Mus musculus with 27 samples.

Results

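Cell cycle and DNA replication genes were followed in the livers of mice fed 1 of 9 diets. The set held 10 genes, named by symbol: Ccnd1, Mcm2, Mcm3, Mcm5, Mcm6, Mcm7, Rrm2, Cdk1, Cdc20 and Top2a. They were read through the probe sets that the annotation of the Affymetrix Mouse 430 2.0 array assigns to exactly 1 of these symbols, which gave 30 of the 45101 probe sets and 10 of the 18194 genes that have such a probe set. All animals were male C57BL/6 mice, 10 weeks old, kept 3 weeks on the diet, with 3 mice and 1 array per mouse for each diet (27 arrays). The AIN-93 purified diet served as the control. Lab chow was made of natural ingredients, the high-fructose diet held 60% fructose, and the high-fat diet was rich in saturated and monounsaturated fat. The Western diet, with 42% of calories from fat, was rich in saturated fat and sucrose, and the atherogenic diet combined fat, sucrose, cholesterol and cholic acid. The EFA-deficient diet lacked essential fatty acids, and the low n-3 diet carried 7% sunflower oil (other labels of those arrays name a DHA supplement). Diet restriction gave 75% of the chow eaten ad lib, so that its difference from the AIN-93 purified diet includes that between chow and purified food. All mice were of 1 strain and 1 sex, were not fasted, and were examined at 1 time, which limits what the groups stand for. The question behind the comparisons was how each diet changes hepatic transcripts.

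In the adult liver most hepatocytes rest outside the cell cycle and re-enter it after injury or loss of tissue. D-type cyclins such as Ccnd1 carry cells through G1, after which E2F factors switch on the genes for replication. The MCM proteins form the ring-shaped helicase that is loaded on replication origins and unwinds DNA, Rrm2 is the regulatory subunit of the reductase that makes deoxynucleotides, and Cdk1, Cdc20 and Top2a act at mitosis, as its kinase, the activator of the anaphase ubiquitin ligase and the enzyme that untangles chromosomes.

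RefSeq promoter windows (build GRCm38.p6, 250 bases before to 50 after the start) were found for 9 members, with 2 windows for Mcm7. The windows below are those found for members called different between diets, with 1 shown for Mcm7. Capitals mark the E2F site (TTTCCCGC, TTTCGCGC, TTTGCCGC or TTTGGCGC), the CHR element (TTTGAA or TTCGAA) and the CCAAT box (CCAAT), each searched on both strands.
Mcm3 promoter, chr1:20820263-20820562, minus strand: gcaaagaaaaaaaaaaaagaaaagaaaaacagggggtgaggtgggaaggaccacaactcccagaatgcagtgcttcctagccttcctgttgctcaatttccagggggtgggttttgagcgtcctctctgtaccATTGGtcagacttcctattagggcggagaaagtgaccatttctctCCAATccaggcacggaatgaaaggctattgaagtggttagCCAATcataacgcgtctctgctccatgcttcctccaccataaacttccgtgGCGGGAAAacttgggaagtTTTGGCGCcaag
Mcm5 promoter, chr8:75109259-75109558, plus strand: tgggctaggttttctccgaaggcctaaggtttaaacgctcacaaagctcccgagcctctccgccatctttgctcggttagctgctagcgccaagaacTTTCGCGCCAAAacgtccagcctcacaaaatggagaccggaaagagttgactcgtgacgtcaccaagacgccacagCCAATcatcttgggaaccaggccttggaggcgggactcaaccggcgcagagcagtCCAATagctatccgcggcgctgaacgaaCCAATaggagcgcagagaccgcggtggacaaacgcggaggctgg
Mcm6 promoter, chr1:128359656-128359955, minus strand: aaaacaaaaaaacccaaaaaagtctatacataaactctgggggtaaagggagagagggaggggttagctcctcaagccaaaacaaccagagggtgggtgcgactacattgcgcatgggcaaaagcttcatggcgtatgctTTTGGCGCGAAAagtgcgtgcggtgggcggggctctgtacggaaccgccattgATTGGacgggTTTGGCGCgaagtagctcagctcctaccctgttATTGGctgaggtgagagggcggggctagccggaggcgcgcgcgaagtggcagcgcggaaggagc
Mcm7 promoter, chr5:138171834-138172133, minus strand: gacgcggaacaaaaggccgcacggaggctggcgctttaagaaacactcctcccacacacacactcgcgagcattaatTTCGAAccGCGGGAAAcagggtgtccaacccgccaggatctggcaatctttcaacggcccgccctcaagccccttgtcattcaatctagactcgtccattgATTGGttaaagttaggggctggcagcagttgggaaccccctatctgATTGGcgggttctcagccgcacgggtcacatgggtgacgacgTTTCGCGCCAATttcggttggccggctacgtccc
Rrm2 promoter, chr12:24708004-24708303, plus strand: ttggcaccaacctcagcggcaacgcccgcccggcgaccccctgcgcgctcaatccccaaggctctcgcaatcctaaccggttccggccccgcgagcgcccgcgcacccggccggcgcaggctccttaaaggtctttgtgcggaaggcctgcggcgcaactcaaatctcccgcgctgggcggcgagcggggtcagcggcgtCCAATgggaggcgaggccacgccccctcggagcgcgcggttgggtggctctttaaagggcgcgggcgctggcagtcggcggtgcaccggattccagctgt
Cdk1 promoter, chr10:69352863-69353162, minus strand: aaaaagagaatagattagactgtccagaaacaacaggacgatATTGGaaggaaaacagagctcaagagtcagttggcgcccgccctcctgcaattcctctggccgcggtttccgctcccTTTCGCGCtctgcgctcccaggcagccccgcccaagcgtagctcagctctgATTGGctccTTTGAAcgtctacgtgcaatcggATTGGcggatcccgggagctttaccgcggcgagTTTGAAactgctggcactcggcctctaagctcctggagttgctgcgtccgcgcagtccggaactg
Cdc20 promoter, chr4:118437294-118437593, minus strand: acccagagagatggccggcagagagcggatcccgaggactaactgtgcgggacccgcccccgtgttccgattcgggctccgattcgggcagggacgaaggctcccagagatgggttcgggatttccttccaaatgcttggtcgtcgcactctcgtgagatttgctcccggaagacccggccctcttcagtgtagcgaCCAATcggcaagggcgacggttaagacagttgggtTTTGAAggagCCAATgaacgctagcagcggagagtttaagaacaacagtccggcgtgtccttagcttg
Top2a promoter, chr11:99024140-99024439, minus strand: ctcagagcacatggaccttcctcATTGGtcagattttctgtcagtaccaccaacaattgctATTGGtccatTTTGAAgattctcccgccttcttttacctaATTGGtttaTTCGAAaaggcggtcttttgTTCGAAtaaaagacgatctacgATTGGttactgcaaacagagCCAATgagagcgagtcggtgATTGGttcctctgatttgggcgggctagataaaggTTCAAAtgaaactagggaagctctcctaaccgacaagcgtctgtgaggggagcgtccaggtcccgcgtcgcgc
Of the 9 members with a window, 5 held the E2F letters, against 2.26% of 32851 promoters. The CHR letters stood in windows of 5 members, against 19.2% of all promoters, and CCAAT in those of all 9, against 37.4%. Mcm6 had 3 E2F matches, of which 2 overlap in the run TTTGGCGCGAAA, the 2 of Mcm5 overlap in TTTCGCGCCAAA, and in Mcm7 an E2F match and a CCAAT box overlap in TTTCGCGCCAAT. Top2a had 4 CHR matches, 6 CCAAT boxes and 0 E2F matches, and Rrm2 had 1 CCAAT box alone among the letters searched. These matches describe the windows only.

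The members lay low in these livers. Values are log2 intensities, and the level of detection was set at log2(100), or 6.64. A probe set was kept if its mean exceeded that level in at least 1 diet, which held for 6 of the 30 probe sets and for 5 of the 10 members (Ccnd1, Mcm6, Mcm7, Rrm2 and Cdc20), while 22 of the 30 were above it on no array. Mcm6 and Cdc20 passed through the atherogenic diet alone. They therefore had to differ, and counts over the kept genes are not read as evidence; counts over all 10 members were taken from gene values averaged over all probe sets with no filter. Mcm2, Mcm3, Mcm5, Cdk1 and Top2a were below detection on every diet, and 2 probe sets, 1 of Mcm5 and 1 of Top2a, sat at the lowest value of the arrays (2.29) throughout. Values near that floor hide the spread between mice, so that p-values there may be too small, and the number of arrays limits precision. Of the 6 kept probe sets 3 carry the suffix x, meaning that some probes also match other sequences, and 1 carries the suffix s, meaning that it matches several transcripts. The suffix x is on the only kept probe sets of Mcm6, Rrm2 and Cdc20, and the suffix s on that of Mcm7. Kept values of these members may thus hold signal from other sequences or several transcripts.

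The tissue matched its label: 8 of 8 hepatocyte markers were above detection, and their summed intensity lay between 257585 and 317826 on all diets. Array medians over kept probe sets lay between 8.22 and 8.38. Markers of Kupffer cells, the macrophages of the liver, moved with the atherogenic diet, and their values stand beside those results. In RNA of whole liver, more cells of a type and more RNA per cell cannot be told apart.

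On the atherogenic diet 6 of the 10 members were higher than on the control diet and 0 were lower (limma over all arrays, adjusted p under 0.05, no filter), where 3.58% of the 18194 genes were higher. The 6 were Ccnd1, Mcm3, Mcm6, Cdk1, Cdc20 and Top2a. The median log2 difference was 0.49 over the 10 members and 0 over all genes. In 8 of the 10 the atherogenic arrays did not overlap the control arrays, as for 18% of all genes. In Ccnd1, Mcm3, Mcm6, Cdk1, Cdc20 and Top2a all 3 atherogenic arrays lay above the 24 arrays of the other diets, as did 2.3% of all genes. The margin was narrow and near the floor in Top2a (lowest atherogenic value 2.43, highest other 2.42) and in Mcm3 (2.96 and 2.92). Tested probe set by probe set, the atherogenic diet had 11 of 30 up and 0 down, beside 3.64% of 34958 probe sets called in either direction. When the 2 diets were fitted alone, with fewer arrays to estimate the spread, 0 of the 10 passed, and the adjusted p of these 6 lay between 0.101 for Ccnd1 and 0.391 for Top2a. Without atherogenic replicate 1 the count was 4, without control replicate 1 it was 4, as Mcm3 and Mcm6 were lost each time (adjusted p between 0.0512 and 0.0631), and without atherogenic replicate 2 it was 6.

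**Figure D1:**
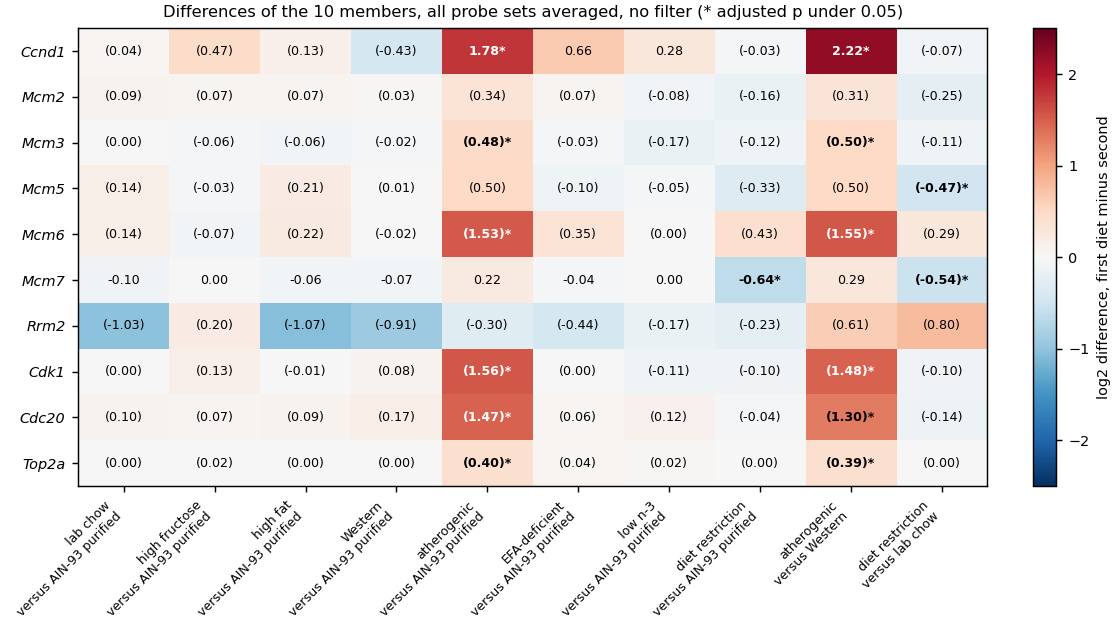
Log2 difference of each of the 10 members (rows) in the 10 comparisons (columns), first diet minus second, from gene values averaged over all probe sets with no filter; bold with an asterisk marks an adjusted p under 0.05, and parentheses mark pairs of diets that were both below the detection level, whose difference is one of dim signals and no measure of fold. The 6 starred members on the atherogenic diet stood beside 0 on the lab chow, high fructose, high fat, Western, EFA-deficient and low n-3 diets.

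Ccnd1, which drives G1, was the 1 of the 6 with every atherogenic array above detection. Its kept probe sets averaged 8.63, 8.86 and 7.98 in the 3 atherogenic mice and 6.13, 6.63 and 6.62 in the control mice. All control arrays were below detection and all atherogenic arrays above it, with no overlap. Ccnd1 was at least 3.59-fold higher on the atherogenic diet (adjusted p = 0.000134). This call among kept genes held in all 16 alternatives tried, with log2 differences between 1.78 and 2.28. With no filter the call of Ccnd1 held in 13 of 14 alternatives, and was lost when the 2 diets were fitted alone (adjusted p = 0.101). Among kept genes 9.03% were higher on this diet. The third probe set of Ccnd1 stayed below detection, yet had 6.43, 6.61 and 5.89 on the atherogenic diet and 4.98, 4.89 and 5.17 on control (adjusted p = 0.0185 over all probe sets with 1 symbol). In the order of the diets, the EFA-deficient diet came next (mean 7.16, SD 0.38, n = 3), then high fructose (7.03, SD 0.15), and the arrays of each later diet overlapped those of its neighbour in the order, down to the Western diet (5.92, SD 0.43). Ccnd1 did not overlap control on the EFA-deficient diet (7.42, 6.73 and 7.33, adjusted p = 0.169) or the high-fructose diet (7.13, 6.85 and 7.11, adjusted p = 0.277), and passed the test on neither.

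**Figure D2:**
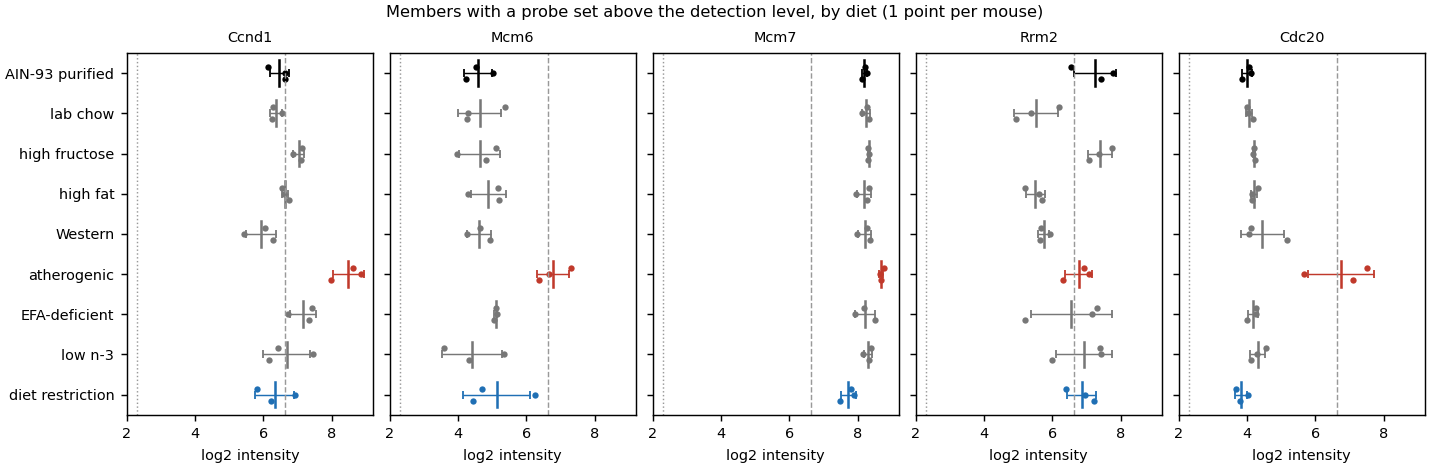
Log2 intensity (horizontal axis) of the 5 members with a kept probe set, by diet; points are mice, vertical bars means, horizontal bars SD (n = 3), the dashed line the detection level of 6.64 and the dotted line the lowest value of the arrays. Ccnd1, Mcm6, Mcm7 and Cdc20 sit farthest right on the atherogenic diet, Mcm7 farthest left on diet restriction, and Rrm2 lies left of the dashed line on lab chow, high fat and Western diets.

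Mcm6, a subunit of the helicase ring, rose on the atherogenic diet. Its kept probe set had 7.31, 6.66 and 6.37 in the atherogenic mice, against 4.52, 5.01 and 4.22 on control. The atherogenic arrays were all higher, but 1 of the 3 stayed below detection. Mcm6 was read at least 1.10-fold higher, a bound set by the dim control arrays. That bound had to exceed 1, since the probe set was kept through its atherogenic mean, and it is not read as evidence. Tested with no filter among all probe sets, this one had an adjusted p of 0.0196, and a second probe set gave 7.07, 6.49 and 6.17 against 3.71, 4.70 and 4.48 (adjusted p = 0.0296 over all probe sets). Over the other diets Mcm6 ranged from 3.59 to 6.26 on single arrays, and the highest of these was diet restriction replicate 2. Mcm3, another subunit of the ring, was below detection on every array. The probe set of Mcm3 with the highest signal had 5.75, 4.67 and 4.39 on the atherogenic diet and 3.74, 4.64 and 4.18 on control, which overlap, and 2 of its 5 probe sets were called higher. The gene value of Mcm3 passed the test (adjusted p = 0.0117), but the brightest probe set taken alone did not (adjusted p = 0.2).

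Mcm2 and Mcm5 did not pass. Mcm5 averaged 3.75, 3.68 and 3.31 on the atherogenic diet against 2.83, 3.14 and 3.27 on control (adjusted p = 0.0946), the arrays not overlapping. Mcm2 had 3.03, 3.80 and 3.14 against 2.99, 3.08 and 2.88, with overlap. Both genes stayed far below detection.

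Among the MCM members only Mcm7 had a probe set well above detection on every diet, and its probe sets disagreed. That probe set was its only kept one and carries the suffix s, while the 3 others were below detection on every array. The kept one had 8.76, 8.65 and 8.67 on the atherogenic diet and 8.21, 8.26 and 8.12 on control, without overlap, which put Mcm7 at 141% of the control level (interval 116 to 171% at 95% confidence, adjusted p = 0.0223). The call was lost without control replicate 1 (adjusted p = 0.0507), control replicate 3 (0.0865) or atherogenic replicate 1 (0.0682). The 3 other probe sets lay between 5.41 and 6.49 on both diets and gave adjusted p of 1, 1 and 0.419, and the mean of all 4 did not pass (adjusted p = 0.543).

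The mitotic members rose from control values below detection. Cdk1 was read at 2.91, 2.91 and 2.91 on the control diet and at 5.34, 4.25 and 3.81 on the atherogenic diet. All 3 atherogenic arrays were above the other 24, of which the highest was 3.48 in Western replicate 3, although all 27 were below detection (adjusted p = 0.00197). Every control, lab chow and EFA-deficient array held the same Cdk1 value. Spread between those mice was thus not measured, and the p-value may be too small. The kept probe set of Cdc20 had 7.52, 5.66 and 7.09 on the atherogenic diet and 4.05, 4.11 and 3.85 on control. Atherogenic replicate 2 lay below detection and the other atherogenic mice above it. Cdc20 was higher (adjusted p = 5.86e-05 with no filter, over all probe sets). Its bound of at least 1.08-fold had to exceed 1 by the filter and is not read as evidence. A second probe set of Cdc20 gave 4.64, 3.04 and 4.25 against 2.33, 2.33 and 2.33 (adjusted p = 0.000491), and the third stayed at the floor on the atherogenic arrays. The probe set of Top2a with the highest signal was at 3.37, 4.34 and 2.35 on the atherogenic arrays and at 2.29 on each control array (adjusted p = 0.0491). Atherogenic replicate 3 lay close to the floor, and below the 2.68 of 1 EFA-deficient mouse.

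**Figure D3:**
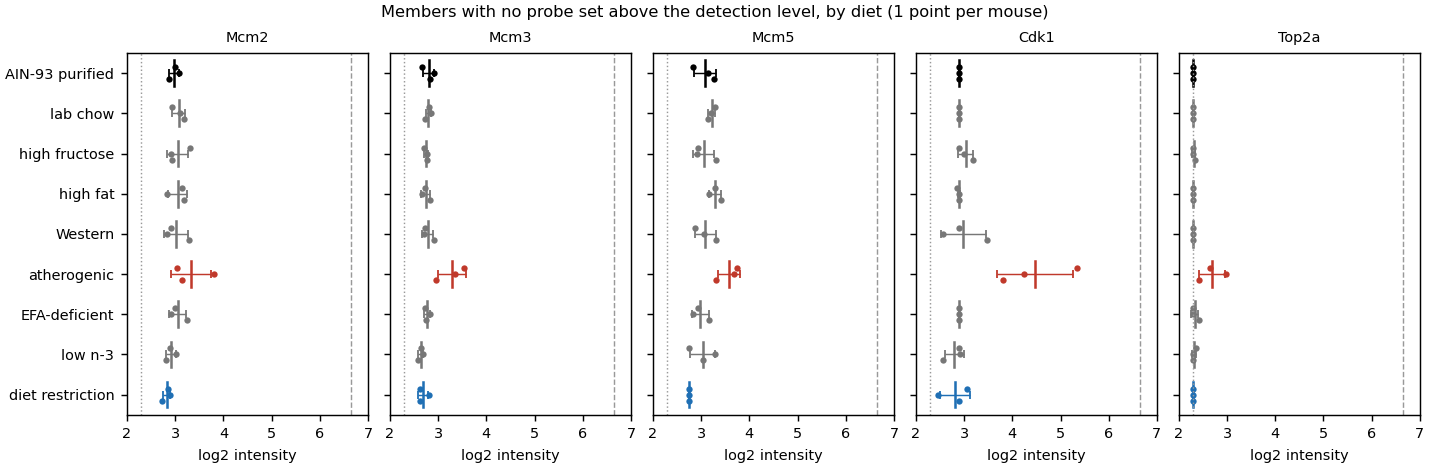
Log2 intensity (horizontal axis) of the 5 members without a kept probe set, each the mean of all its probe sets, by diet; points are mice, vertical bars means, horizontal bars SD (n = 3), the dashed line the detection level and the dotted line the lowest value. No point reaches the dashed line; Cdk1 on the atherogenic diet lies between 3.81 and 5.34, to the right of all other diets, and Mcm5 on diet restriction sits at 2.75 in all 3 mice.

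Kupffer cell markers were higher on the same arrays. Of 14 such markers 11 were above detection. Of these 5 rose against control and 0 fell (Cd5l, Lyz2, C1qb, Ctss and Clec4f), where 9.03% of kept genes were higher. The summed intensity of the 14 lay between 12407 and 22938 on the atherogenic diet, between 5775 and 8128 on control and between 3158 and 4646 on the Western diet. Markers of T and NK cells (0 of 8) and of B and plasma cells (0 of 5) did not reach detection on any diet. Neutrophil markers summed to 1639 in atherogenic replicate 2 and to 35.3 and 36.0 in the other atherogenic mice. Their highest sum on any diet was 3498, in low n-3 replicate 2. Of the 8 hepatocyte markers 0 were called against control, beside 14.9% of kept genes. Their summed intensity was lower on each atherogenic array (265316, 273838 and 257585) than on any control array (286391, 275374 and 290296). The part of these cells in the members' values was not tested.

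Both the atherogenic and the Western diet were rich in fat and sucrose, and the atherogenic diet held cholic acid and far more cholesterol. Against the Western diet the atherogenic diet had 6 of 10 members higher and 0 lower, beside 5.29% of all genes, and the arrays did not overlap in 9 of 10, beside 17.1% of genes. The 6 were again Ccnd1, Mcm3, Mcm6, Cdk1, Cdc20 and Top2a, and since both comparisons use the same atherogenic arrays this is no independent repeat. Ccnd1 on the Western diet was at 6.05, 5.44 and 6.27, all below detection, which made it at least 3.59-fold higher on the atherogenic diet (adjusted p = 9.29e-06), where 11.3% of kept genes were higher. Cdc20 had 4.11, 4.05 and 5.17 on the Western diet, with Western replicate 3 above the other Western mice. Cdc20 was higher on the atherogenic diet (adjusted p = 0.000255 with no filter, over all probe sets, of which 5.18% were called). Its bound of at least 1.08-fold was again put above 1 by the filter. The kept probe set of Mcm7 was at 140% of Western (95% confidence interval 116 to 171%, adjusted p = 0.0148), lost without Western replicate 2 (adjusted p = 0.0897) or atherogenic replicate 1 (0.0561). Fitted alone, this pair of diets again gave 0 members, and the 6 had adjusted p between 0.123 and 0.439. Kupffer cell markers above detection were higher in 11 of 11 in this comparison, where 11.3% of kept genes were higher.

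Diet restriction lowered Mcm7. The kept probe set had 7.80, 7.90 and 7.48 on diet restriction, 8.21, 8.26 and 8.12 on control and 8.27, 8.12 and 8.33 on lab chow. The restricted mice lay below both other groups. Mcm7 fell to 72.2% of the control level (interval 59.4 to 87.7%, adjusted p = 0.0301), where 16% of kept genes were lower. Against lab chow, the same food without restriction, it was at 70.0% (57.6 to 85.1%, adjusted p = 0.00507), where 17.6% of kept genes were lower. The second comparison kept its call in all 14 alternatives tried. The first lost it without control replicate 1 (adjusted p = 0.0716), control replicate 2 (0.0991), control replicate 3 (0.052) or diet restriction replicate 3 (0.145). All 4 probe sets of Mcm7 had lower means on diet restriction, and one below detection read 5.23, 4.82 and 4.92 against 6.21, 6.36 and 6.20 on control (adjusted p = 0.00788 over all probe sets, of which 7.54% were called).

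**Figure D4:**
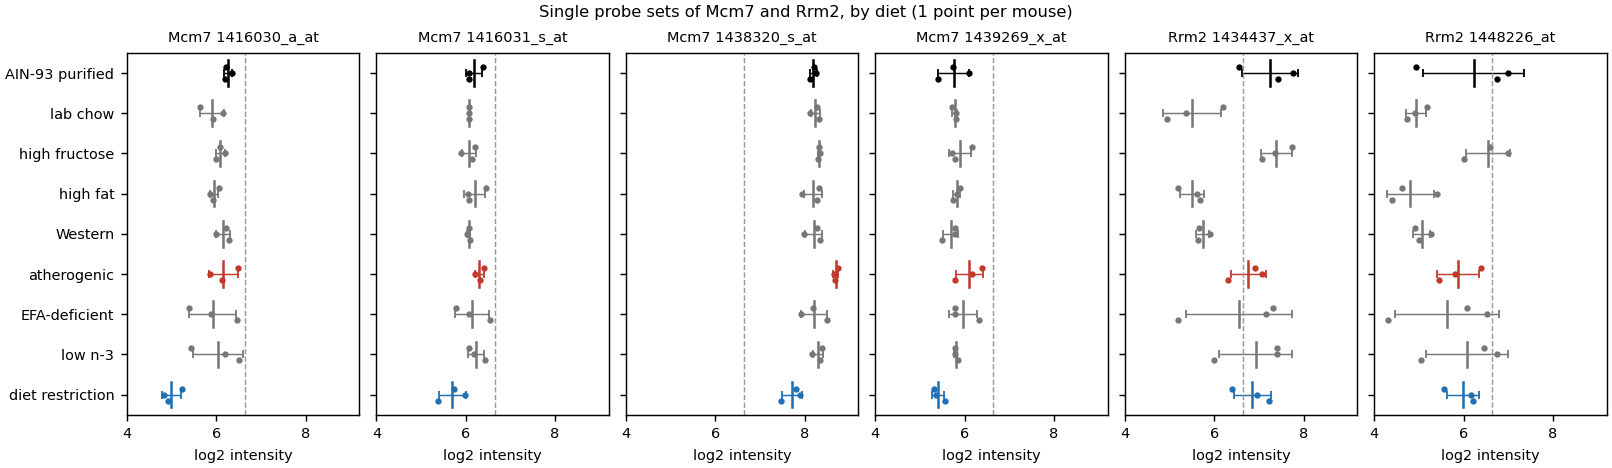
Log2 intensity (horizontal axis) of the 4 probe sets of Mcm7 and the 2 brighter probe sets of Rrm2, by diet; points are mice, vertical bars means, horizontal bars SD (n = 3) and the dashed line the detection level. Diet restriction has the lowest mean in each Mcm7 panel, while the atherogenic diet stands apart only in the brightest Mcm7 probe set, at 8.65 to 8.76; both Rrm2 panels put lab chow, high fat and Western diets left of the dashed line.

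With no filter, 1 of the 10 members was lower on diet restriction than on control and 0 were higher, beside 4.94% of genes lower, and 2 were lower than on lab chow (Mcm5 and Mcm7), beside 6.12%. Mcm5 averaged 2.75, 2.75 and 2.75 on diet restriction against 3.29, 3.21 and 3.15 on lab chow, all below detection (adjusted p = 0.0484). That call was lost without any 1 of the 6 mice, with adjusted p between 0.0745 and 0.133. Every probe set of Mcm5 held the same value in all restricted mice. Spread between those mice was thus not measured, and the p-values may be too small. Of the 11 Kupffer cell markers above detection, 3 were lower on diet restriction than on control and 0 higher. Among all kept genes 16% were lower. With lab chow as the reference 0 of the 11 were called, beside 36.8% of kept genes. With no filter 1 of all 14 was higher than on lab chow, beside 7.18% of genes. Erythroid markers, 4 on the array and 1 above detection, summed to 155, 176 and 115 on diet restriction, 651, 569 and 647 on control and 626, 664 and 709 on lab chow. Stellate cell and fibroblast markers summed to 213 to 256 on diet restriction, 324 to 351 on control and 270 to 333 on lab chow. Restricted mice lay below both other groups in these sums, and the part of any of these cells in the members' values was not tested.

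Rrm2 followed another pattern. Its kept probe set had 6.56, 7.77 and 7.43 on the control diet and 7.75, 7.35 and 7.07 on the high-fructose diet. On lab chow it had 6.21, 5.38 and 4.94, on the high-fat diet 5.19, 5.62 and 5.69, and on the Western diet 5.66, 5.92 and 5.65. These 9 arrays were all below detection and below the lowest control array, which at 6.56 was itself below detection. The bounds that follow take that array as read. Rrm2 was at least 1.52-fold lower than control on lab chow (adjusted p = 0.0196), with high fat (adjusted p = 0.0192) and with Western food (adjusted p = 0.044), where 2.19%, 3.33% and 4.48% of kept genes were lower. The 3 comparisons share the control arrays, and all 3 were lost without control replicate 2 (adjusted p = 0.0952, 0.0939 and 0.17) or control replicate 3 (adjusted p = 0.0706, 0.0692 and 0.125). They were also lost without lab chow replicate 2 (0.0539) or 3 (0.0855), without high fat replicate 1 (0.0665), or without Western replicate 1 (0.0902), 2 (0.0678) or 3 (0.0928), each for its own diet.

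The second probe set of Rrm2 had 4.93, 6.99 and 6.75 on control, 5.17, 4.91 and 4.72 on lab chow, 4.63, 5.40 and 4.40 on high fat and 4.91, 5.27 and 5.01 on Western. It was lower on average on those diets, but control replicate 1 fell within their range, and adjusted p was 0.378, 0.296 and 0.412. The third lay between 2.39 and 2.85. With all probe sets averaged and no filter, Rrm2 did not pass on any of these diets (adjusted p = 0.136, 0.114 and 0.215). On the EFA-deficient diet the mice were split, at 7.32, 7.16 and 5.19 in the kept probe set, and on the low n-3 diet likewise, at 7.40, 7.41 and 5.99. Restricted mice had 6.40 (below detection), 6.95 and 7.22. Taken as read, this was at least 1.16-fold higher than lab chow (adjusted p = 0.0277), where 19.2% of kept genes were higher. That call was lost without lab chow replicate 2 (adjusted p = 0.075) or 3 (0.127), or without diet restriction replicate 2 (0.066) or 3 (0.0983). The atherogenic mice, at 6.92, 7.06 and 6.32, overlapped control, and did not pass (adjusted p = 0.582).

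No member passed on the remaining diets. For high fructose, for EFA deficiency and for low n-3 food 0 of the 5 members with a kept probe set passed, beside 3.91%, 5.51% and 1.07% of kept genes called in either direction. With no filter 0 of the 10 passed, beside 0.852%, 1.32% and 0.379% of all genes. With no filter, lab chow, high fat and Western diets also gave 0 of 10, beside 1.15%, 2.18% and 2.04% of genes. At an unadjusted p under 0.05 with no filter, limma gave Rrm2 alone on those 3 diets, Ccnd1 alone on the EFA-deficient diet, and 0 with fructose or low n-3 food, while Dunnett's comparison per gene gave 1 member on lab chow, 1 on high fat and 0 on the others.

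Other genes of the cell cycle were read from 9 lists of 145 genes besides the members, of which 141 were on the array and 42 had a kept probe set. On the atherogenic diet with no filter 20 rose and 1 fell against control, beside 5.11% of all genes called, with a median log2 difference of 0.05 over the 141 and 0 over all genes. Among genes of spindle, kinetochore and chromosome structure 13 of 33 rose and 0 fell. Mki67, the proliferation marker on mitotic chromosomes, read 5.33, 5.28 and 5.12 against 2.29, 2.38 and 2.29 on control (adjusted p = 3.13e-16). Birc5, the survivin subunit of the chromosomal passenger complex, read 5.44, 4.08 and 5.41 against 2.31 in each control mouse (adjusted p = 3.69e-06). Both genes were below detection on every array, and the atherogenic arrays were all higher.

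Stmn1, which destabilizes microtubules, was measurable on both diets. Its kept probe sets had 9.55, 8.71 and 9.24 on the atherogenic diet and 6.89, 7.37 and 6.79 on control, or 443% of the control level (interval 269 to 730.4% at 95% confidence, adjusted p = 0.000254). Smc4, of condensin, was at 176% (133 to 233%, adjusted p = 0.00862), and Hmgb2, a chromatin protein, at 168% (119 to 236%, adjusted p = 0.0481). Of 18 mitotic kinases, cyclins and ubiquitin ligase genes 3 rose and 0 fell with no filter, all below detection, beside 3.58% of all genes higher. Ube2c, the ubiquitin-conjugating enzyme of the anaphase complex, read 5.10, 4.82 and 5.0 against 2.61, 2.64 and 2.29 (adjusted p = 7.74e-08), and the mitotic cyclin Ccnb2 read 4.28, 3.45 and 4.38 against 2.33, 2.29 and 2.29 (adjusted p = 3.52e-05). For Ccna2, the cyclin of S phase and G2, the values were 2.82, 2.80 and 3.05 against 2.29, 2.45 and 2.29 (adjusted p = 3.76e-06).

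Genes that act before mitosis were also read. With no filter 3.58% of all genes were higher and 5.11% were called in either direction. A single gene called among 32 or among 13 is no result about its list. Prim1, the primase that starts DNA strands, read 5.28, 4.92 and 4.87 against 3.96, 4.21 and 3.79, below detection (adjusted p = 0.013), as 1 of 32 replication fork genes. E2f2 was the 1 of 13 E2F, FoxM1 and MYB factors that rose (2.84, 3.30 and 2.95 against 2.30, 2.40 and 2.39, adjusted p = 0.000223). Of 11 G1 genes, Cdc25a, the phosphatase that activates G1 kinases, and Rbl1, the pocket protein p107, rose below detection (adjusted p = 0.0174 and 0.0239), and Cdk6, the partner of D-type cyclins, rose among kept genes to 150% (116 to 194%, adjusted p = 0.0412). Of 7 CDK inhibitors 0 were called with no filter. Among the 42 kept genes as a whole 6 rose and 3 fell, beside 14.9% of kept genes called, and without any 1 of the 6 mice of these diets the count of 9 was between 3 (control replicate 2) and 6 (atherogenic replicate 3). Those that fell were the flap endonuclease Fen1 (63.9%, 49.4 to 82.7%, adjusted p = 0.0245), the origin recognition subunit Orc3 (70.2%, 60.2 to 81.8%, adjusted p = 0.00322) and the securin Pttg1 (77.3%, 66.9 to 89.4%, adjusted p = 0.0218).

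**Figure D5:**
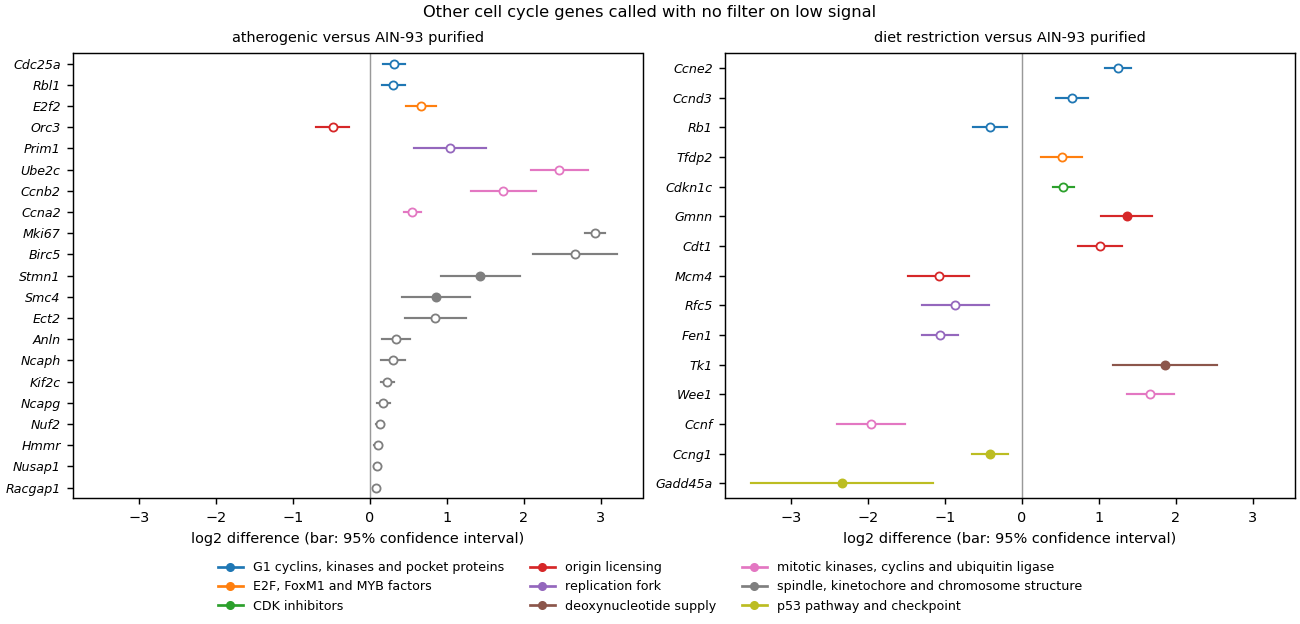
Log2 difference from the AIN-93 purified diet (horizontal axis, bars 95% confidence intervals) of the other cell cycle genes with an adjusted p under 0.05 with no filter, on the atherogenic diet (left, 21 genes) and on diet restriction (right, 15 genes), coloured by list; open circles mark genes below detection on both diets, whose difference is no measure of fold. On the left 20 of 21 lie right of 0, and on the right 8 of 15.

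On diet restriction the other cell cycle genes were called in both directions, at shares near or under those of all genes. With no filter 8 rose and 7 fell against control, beside 9.71% of genes called, and 13 rose and 7 fell against lab chow, beside 13.3%. Among kept genes 4 rose and 6 fell against control (29.5% of kept genes called) and 7 rose and 6 fell against lab chow (36.8%). Tk1, the thymidine kinase of S phase, had 8.16, 7.88 and 8.13 on diet restriction, 6.46, 6.04 and 6.11 on control and 6.86, 6.88 and 6.92 on lab chow. It was at least 2.66-fold higher than control (adjusted p = 0.000324) and at 226% of lab chow (145 to 350.4%, adjusted p = 0.00472). Gmnn, geminin, which blocks renewed licensing of origins, was at 256% of control (204 to 322%, adjusted p = 4.9e-06) and 243% of lab chow (194 to 305%, adjusted p = 2.1e-06).

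Wee1, the kinase that restrains Cdk1, read 7.63, 8.10 and 7.94 on diet restriction against 4.56, 4.79 and 4.64 on control, at least 2.37-fold higher (adjusted p = 8.28e-09), and 4.64 in each lab chow mouse. Restricted mice thus stood apart from both groups. Fen1 fell, with 6.61, 6.50 and 6.51 on diet restriction against 8.50, 8.22 and 8.19 on control, at least 3.16-fold lower (adjusted p = 7.93e-07), and at least 4.06-fold lower than lab chow (adjusted p = 9.8e-09). Fen1 was also higher on the Western diet than on control (150%, 116 to 194%, adjusted p = 0.041). Mcm4, the helicase subunit next to Mcm6 and Mcm7 in the ring, read 3.94, 4.68 and 4.34 on diet restriction against 5.29, 5.49 and 5.43 on control (adjusted p = 0.00224), all below detection. Ccne2, a G1/S cyclin, read 3.79, 3.49 and 3.83 against 2.29, 2.53 and 2.55 (adjusted p = 1.71e-08), and Ccnf, cyclin F, read 3.47, 4.12 and 3.94 against 5.58, 6.04 and 5.79 (adjusted p = 1.37e-05), again below detection.

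Among all kept genes, those whose means over the 9 diets ran most like a member's were, for Ccnd1, Laptm5, Orm1 and Hk3 (Pearson's r 0.97, 0.96 and 0.95), for Mcm6, Tifa, Ifi27l2b and Cadm1 (0.97, 0.97 and 0.96), for Mcm7, Tgm2, Ap2a2 and Jpt1 (0.97 each), for Cdc20, Abcg1, Bcl2l1 and Agrn (0.98, 0.96 and 0.96), and for Rrm2, Hs6st1, Rnf185 and Slc49a4 (0.90, 0.90 and 0.89). In the first 4 of these groups the atherogenic diet held the highest mean of every gene named, so that 1 diet of 9 weighs heavily in these values. Tifa, a TRAF-interacting adaptor, went from a control mean of 4.66 to 6.72 on the atherogenic diet, and Abcg1, a sterol exporter, from 6.23 to 8.32.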

How the data were processed

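Liver RNA of 27 mice was measured on Affymetrix Mouse 430 2.0 arrays. The authors ran GCRMA on the arrays and deposited log2 intensities, used here unchanged; scanner files were not used here. Groups came from the GEO labels, for the low n-3 arrays from their description. Probe sets were paired with symbols by the platform annotation and kept where their mean exceeded log2(100) in at least 1 diet (10582 probe sets, 6478 genes), and the kept probe sets of a gene were averaged. For each of 8 diets the contrast to AIN-93 purified food was fitted over all arrays (limma 3.58.1, R 4.3.3), with p adjusted by Benjamini and Hochberg over genes and diets together and called at 0.05. Atherogenic versus Western and diet restriction versus lab chow were adjusted on their own. The same fit ran over all 18194 genes with no filter and over single probe sets. A group below detection on all 3 arrays gave a bound, its arrays set at the detection level. The other group entered as read, also where some of its arrays were below detection. The fit was tested on simulated data. Members and gene lists were chosen with earlier results of these data known, and the unfiltered member counts after seeing that 5 members had no kept probe set. Named were all members, up to 4 called genes of a list by size of change, and the 3 genes most like each kept member. Mice are separate animals.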

Additional observations from a re-analysis of the deposited data

How the results depend on the processing

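No result changed direction under the alternatives run. For members with a kept probe set, the count on lab chow went from 1 to 0 with p adjusted within each diet, in a fit of the 2 diets alone, with no filter and with a filter at log2(200). On high fat it went from 1 to 0 with no filter or log2(200). On Western it went from 1 to 0 in the fit of the 2 diets alone, after quantile normalization, with no filter and at log2(200). The losses at log2(200) on lab chow, high fat and Western were fixed in advance. Rrm2, the 1 member called on these diets, had a highest diet mean of 7.39 and was not tested there. The log2(200) filter gave 2 in place of 4 members on atherogenic against control and against Western, and 1 in place of 2 on diet restriction against lab chow, since fewer genes were tested. Leaving out 1 mouse at a time gave 0 to 1 on lab chow, high fat, Western and diet restriction, 3 to 4 on both atherogenic comparisons and 1 to 2 on diet restriction against lab chow. With no filter, array weights and Dunnett's comparison each gave 1 in place of 0 members on lab chow and on high fat, the brightest probe set gave 0 in place of 1 on diet restriction, array weights and the brightest probe set gave 1 in place of 2 against lab chow, and the fit of the 2 diets alone gave 0 in place of 6 on both atherogenic comparisons. Leaving out 1 mouse gave 0 to 1 on lab chow, high fat and diet restriction, 4 to 7 on atherogenic against control, 6 to 7 against Western, and 1 each time on diet restriction against lab chow.

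For the other cell cycle genes, array weights gave 6 in place of 0 calls on lab chow, 1 in place of 0 on high fructose, 11 in place of 3 on high fat, 7 in place of 2 on Western, 3 in place of 0 on EFA-deficient, 1 in place of 0 on low n-3 and 16 in place of 10 on diet restriction. No filter gave 1 on high fructose, 0 on high fat, 0 on Western, 21 in place of 9 on atherogenic against control, 34 in place of 7 against Western, and 20 in place of 13 on diet restriction against lab chow. The fit of the 2 diets alone gave 0 on Western, 3 on atherogenic against control and 3 against Western, the log2(200) filter gave 1, 3 and 3, and the brightest probe set gave 1 on high fat. Leaving out 1 mouse gave 0 to 2 on high fat, 0 to 3 on Western, 3 to 6 on atherogenic against control, 0 to 2 on EFA-deficient and 0 to 1 on low n-3. With all mice kept, the share of all tested genes called also moved. It ran from 1.15 to 14.1% on lab chow, 0.0309 to 10% on high fructose and 2.18 to 22.8% on high fat. On Western food it was 1.2 to 17.8%, on EFA-deficient 0.0309 to 10% and on low n-3 0 to 4.57%. Atherogenic had 5.11 to 27.8% against control and 6.73 to 21.7% against Western. Diet restriction had 9.71 to 42.5% against control and 13.3 to 44.6% against lab chow. The counts are no result about these genes. The cause of these shifts was not tested where none is named. Replicate numbers were not taken to pair the mice: deviations of same-numbered arrays correlated at a median of 0.0032, from -0.27 to 0.41, although 17 of 27 arrays were nearest to one of their own number. With the replicate block and no filter, the members called stayed at 6 and 6 on the atherogenic comparisons. Among kept members the counts stayed at 4 and 4 there, and at 1 and 2 on those of diet restriction. The 4 include Mcm6 and Cdc20, which passed the filter through the atherogenic diet alone, so that count is not read as evidence. With the block, the other genes were 8 in place of 9 on atherogenic against control. Signal near the floor limits what can be said of 5 members.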

Other observations

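Genes of the p53 pathway and the checkpoints (12 on the array, 6 kept) and the CDK inhibitors (7 on the array, 2 kept) were also read. Of the 6 kept genes of the first list 1 was called on the atherogenic diet and 2 on diet restriction, near the 14.9% and 29.5% of all kept genes, and of the 2 kept CDK inhibitors 0 were called on either. Ccng1, cyclin G1, a p53 target, was above detection on all diets compared here. It had 7.92, 8.21 and 7.97 on the atherogenic diet, 7.56, 7.65 and 7.74 on control and 7.34, 7.24 and 7.12 on diet restriction. The 3 groups did not overlap: Ccng1 was at 131% of control on the atherogenic diet (95% confidence interval 110 to 154%, adjusted p = 0.0388, limma) and at 75.0% on diet restriction (63.4 to 88.7%, adjusted p = 0.0261). Gadd45a, a stress-induced growth arrest gene, had 4.05, 5.34 and 3.84 on diet restriction and 6.43, 7.24 and 6.57 on control, at least 1.07-fold lower (adjusted p = 0.00623). The control arrays at 6.43 and 6.57 were themselves below detection, and the bound takes them as read. Atr, the kinase that senses stalled forks, had 6.95, 7.23 and 6.93 on diet restriction against 5.92, 5.62 and 6.15 on lab chow, at least 1.31-fold higher (adjusted p = 0.000758).

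Cdkn2c, the inhibitor p18 of the D-type cyclin kinases, had 6.94, 5.75 and 6.49 on the atherogenic diet and 4.68, 4.97 and 4.67 on the Western diet (adjusted p = 0.00184 with no filter). All atherogenic values were higher, but 2 of the 3 were below detection. On diet restriction Cdkn2c had 5.86, 6.86 and 6.07, against 5.20, 4.97 and 5.28 on lab chow (adjusted p = 0.0153 with no filter).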
